A study of Mus musculus with 8 samples.

Results

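MHC class I and peptide loading genes were followed in tumor-associated macrophages (TAMs) of mice treated with thiostrepton, an antibiotic of the thiopeptide class. The 10 genes were listed by name, as the class I heavy chains H2-K1, H2-D1, H2-Q4, H2-Q6, H2-Q7, H2-Q8 and H2-T23, the light chain B2m and the loading factors Tap1 and Tapbp, and all 10 were found among the 23413 gene symbols of the count table. B16F10 melanoma cells had been injected under the skin of male B6 mice of 8 to 10 weeks of age, which were dosed on days 6 and 12, and on day 18 the tumors were sorted for cells with the surface phenotype CD45+F4/80+CD11b+Gr-1-. The vehicle group had 2 mice given DMSO, the intraperitoneal (I.P.) group 4 mice, and the tumor-adjacent subcutaneous (S.C.) group, called IS in the labels, 2 mice given 20 mg/kg. Each library came from 1 mouse, all mice carried the tumor, and the sources used here give neither the dose of the 4 I.P. mice nor the route by which DMSO was given.

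Class I molecules carry peptides from inside the cell to its surface, where CD8 T cells and natural killer cell receptors read them. A heavy chain, encoded by an H2 gene in the mouse, pairs with the light chain β2-microglobulin, the product of B2m. Peptides cut by the proteasome are pumped into the endoplasmic reticulum by the transporter TAP, of which Tap1 encodes 1 subunit, and tapasin, the product of Tapbp, holds the empty class I molecule at the transporter while it is loaded. In macrophages these genes are known to respond to interferons and to NF-kB. H2-K1 and H2-D1 encode the classical, highly variable heavy chains. The H2-Q genes and H2-T23 encode nonclassical heavy chains, Qa-1 in the case of H2-T23, which is read by the natural killer cell receptor CD94/NKG2A.

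Libraries held 14127506 to 17577466 counts, with group medians of 15174847 (DMSO), 16554375 (I.P.) and 15285128 (S.C.). Levels are given as CPM, counts relative to the library total scaled by edgeR's TMM method over the 8 mice, and a floor of 3 counts was worth 0.169 to 0.218 CPM, which covers counting error only. The summed level of 8 macrophage markers lay between 18372 and 31213 CPM, of which Lyz2 alone was at 13317 to 25044 CPM. The gate marker F4/80 (Emr1), the common leukocyte marker Ptprc and Csf1r were detected in every mouse, but not evenly. In S.C. mouse 1, Emr1 (360 CPM), Csf1r (353 CPM) and Itgam (103 CPM) were below both DMSO mice. The DMSO mice had 914 and 594, 767 and 732, and 198 and 254 CPM. In S.C. mouse 2 these genes were above both DMSO mice, at 1020, 1128 and 384 CPM. Cd68 was above both DMSO mice in both S.C. mice. In sorted populations, fewer cells of a type and less RNA per cell cannot be told apart.

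The heavy chain genes are close relatives, and part of their sequence cannot be assigned to 1 gene. Over windows of 50 bases of the longest protein-coding GENCODE vM21 transcript of each gene, 34.9% of H2-Q7, 32.0% of H2-Q6, 28.8% of H2-T23, 24.3% of H2-Q4, 14.3% of H2-D1 and 8.79% of H2-K1 were also present in a transcript of another gene. For H2-Q7, 19.3% of windows were shared with H2-Q6, and for H2-Q6 14.0% with H2-Q7. B2m shared 0%, Tap1 0.86% and Tapbp 2.0%. H2-Q8 was matched to neither the annotation nor the promoter table, so this share is not given for it. Values of single H2-Q genes are therefore uncertain, and sums are given beside them. A sum does not move with the way reads are divided among the genes in it. Reads given to related genes outside it, or left uncounted, can still move it. The sum of H2-Q4, H2-Q6, H2-Q7 and H2-Q8 leaves out H2-Q5 and H2-Q9.

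The longest identical run of H2-Q6 and H2-Q7 within 1 coding exon was 259 bases, in exon 4 of both. Its first 120 bases are shown with the best match in the coding exons of 3 other heavy chains, to let the likeness behind the shared reads be seen. The bases were read from GENCODE vM21 transcripts on GRCm38, 5′ to 3′ along the gene, and capitals mark bases that differ from H2-Q6. The stretches lie at chr17:35427864-35427983 (H2-Q6, + strand), chr17:35442267-35442386 (H2-Q7, + strand), chr17:35382858-35382977 (H2-Q4, + strand), chr17:33997441-33997560 (H2-K1, - strand) and chr17:35265784-35265903 (H2-D1, + strand), in exon 4 of each gene.
H2-Q6: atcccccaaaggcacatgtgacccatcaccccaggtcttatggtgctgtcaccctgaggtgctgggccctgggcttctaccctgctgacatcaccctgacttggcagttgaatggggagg
H2-Q7: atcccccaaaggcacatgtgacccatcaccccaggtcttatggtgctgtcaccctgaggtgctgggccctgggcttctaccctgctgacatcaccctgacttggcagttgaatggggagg
H2-Q4: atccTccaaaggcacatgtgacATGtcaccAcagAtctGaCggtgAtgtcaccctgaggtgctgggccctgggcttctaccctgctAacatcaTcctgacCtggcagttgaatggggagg
H2-K1: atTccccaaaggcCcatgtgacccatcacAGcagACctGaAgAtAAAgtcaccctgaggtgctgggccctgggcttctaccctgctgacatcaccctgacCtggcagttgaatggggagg
H2-D1: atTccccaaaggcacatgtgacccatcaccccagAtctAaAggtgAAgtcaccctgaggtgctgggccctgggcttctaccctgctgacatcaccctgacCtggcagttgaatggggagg
Over these 120 bases H2-Q7 differed from H2-Q6 at 0 positions, H2-D1 at 7, H2-Q4 at 12 and H2-K1 at 13.

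Each route was compared with DMSO, and the routes with each other, to ask whether thiostrepton changed these transcripts in TAMs. After adjustment over all genes tested by edgeR's quasi-likelihood test, 0 of 10 members had an adjusted p under 0.05 in any of the 3 comparisons, and 0% of all genes did. By the study's criterion, which asks for an unadjusted P under 0.05 and a 2-fold change or more, 1 of 10 members (H2-Q8) was called by I.P. against 2.0% of all genes tested, 1 of 10 (H2-Q8) by S.C. against 5.06%, and 0 of 10 between the routes against 7.05%. At an unadjusted P under 0.05 alone the members numbered 1, 1 and 0, the same gene in both cases, and all genes 418 of 12174, 632 of 11680 and 1049 of 12206. The median log2 fold change of the members was 0.12 by I.P., 0.61 by S.C. and 0.48 for S.C. against I.P., beside medians over all genes of 0.02 in each comparison. The I.P. median lay below 0 without DMSO mouse 2 (-0.13) or I.P. mouse 3 (-0.14) and was 0.56 without DMSO mouse 1. Fitted values lay above 0 for 6, 9 and 9 of the 10 members. Both routes were compared with the same 2 DMSO mice. All values of a comparison are from its own fit, as log2 fold change ± standard error (SE).

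**Figure D1:**
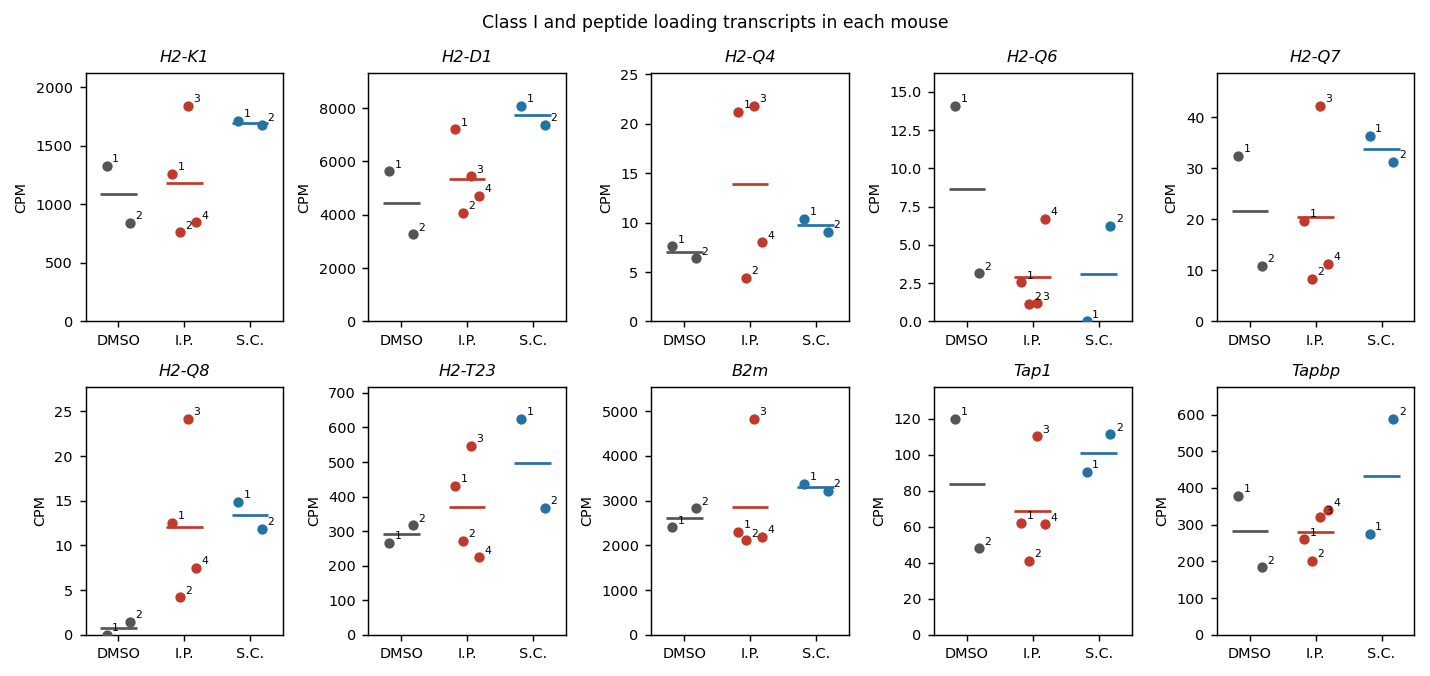
CPM of each of the 10 members in each of the 8 mice (points, numbered by mouse) with the mean of each group (line), each panel on its own linear axis from 0. Most panels show the 2 DMSO mice or the 4 I.P. mice spread as widely as the groups are apart, and H2-Q8 is the gene with both DMSO mice below every treated mouse.

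The classical heavy chains made up most of the class I signal. H2-K1 and H2-D1 together held 86.0% to 92.0% of the counts on 28 class I heavy chain genes in each mouse. H2-K1 (chr17:33996017-34000347, - strand) was at 1331 and 842 CPM in the DMSO mice, at 1260, 762, 1844 and 848 CPM in I.P. mice 1 to 4, and at 1714 and 1680 CPM in the S.C. mice. Both S.C. mice were above both DMSO mice, while I.P. mouse 3 was the highest of all and I.P. mouse 2 the lowest. The log2 fold change of H2-K1 was 0.11 ± 0.39 by I.P. (edgeR adjusted p = 0.988), 0.62 ± 0.34 by S.C. (edgeR adjusted p = 1.0) and 0.53 ± 0.36 for S.C. against I.P. (edgeR adjusted p = 0.774), each within what the spread between mice allows.

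H2-D1 (chr17:35262730-35267499, + strand) was at 5637 and 3264 CPM in the DMSO mice, at 7208, 4078, 5447 and 4705 CPM in the I.P. mice, and at 8093 and 7381 CPM in the S.C. mice. It was the only member for which both S.C. mice lay above all 4 I.P. mice, which 8.05% of all genes did. The I.P. and DMSO mice overlapped. Its log2 fold change was 0.26 ± 0.32 by I.P. (edgeR adjusted p = 0.980), 0.77 ± 0.37 by S.C., a 1.71-fold higher level (edgeR adjusted p = 0.990), and 0.53 ± 0.27 between the routes (edgeR adjusted p = 0.640). The S.C. value was 0.42 without DMSO mouse 2, and 1.21 without DMSO mouse 1, where it passed the study's criterion, as 1.66% of all genes did.

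H2-T23 (chr17:36029773-36032855, - strand) was at 267 and 317 CPM in the DMSO mice, at 432, 271, 547 and 224 CPM in the I.P. mice, and at 625 and 368 CPM in the S.C. mice. The S.C. mice were both above the DMSO mice but far from each other, and the I.P. mice lay on both sides of the DMSO mice. The fitted log2 fold changes were 0.33 ± 0.37 by I.P. (edgeR adjusted p = 0.980), 0.74 ± 0.37 by S.C. (edgeR adjusted p = 0.995) and 0.43 ± 0.40 between the routes (edgeR adjusted p = 0.846). The S.C. value was 0.31 without S.C. mouse 1, and 1.04 without S.C. mouse 2, where it passed the study's criterion, as 27.8% of all genes then did.

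H2-Q8 was the member with the largest fitted change. Its counts were 0 and 25 in the DMSO mice, then 197, 69, 428 and 129 in I.P. mice 1 to 4, and 221 and 163 for S.C. mice, or 0 and 1.44 CPM, 12.6, 4.20, 24.2 and 7.53 CPM, and 14.9 and 11.9 CPM. All 6 treated mice were above both DMSO mice. A member with every I.P. mouse above every DMSO mouse was found once in 10, and 7.31% of all genes were so placed. The log2 fold change was 4.02 ± 1.19 by I.P. (unadjusted P = 0.00876 and adjusted p = 0.980 by edgeR) and 4.16 ± 1.61 by S.C. (unadjusted P = 0.0436 and adjusted p = 0.902 by edgeR), and between the routes it was 0.14 ± 0.66 (edgeR adjusted p = 0.983). These sizes rest on 25 counts in 1 DMSO mouse. They were 3.07 by I.P. and 3.17 by S.C. without DMSO mouse 1, and the S.C. value then no longer passed the criterion, nor with library size as the only scaling (3.99). Without DMSO mouse 2 the gene is at 0 in the vehicle group and the fitted value is no bound. With S.C. mouse 1 or S.C. mouse 2 left out, the edgeR adjusted p of H2-Q8 by S.C. was 0.00878 and 0.00404, but 16.2% and 19.5% of all genes then had an adjusted p under 0.05, the lone S.C. mouse being assumed to vary like the DMSO mice.

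H2-Q6 (chr17:35424850-35430055, + strand) was highest in DMSO mouse 1, where H2-Q8 had no count. It was at 14.1 and 3.16 CPM in the DMSO mice, at 2.55, 1.16, 1.19 and 6.71 CPM in the I.P. mice, and at 0 and 6.26 CPM in the S.C. mice. DMSO mouse 1 had 208 counts on H2-Q6 and 0 on H2-Q8, and S.C. mouse 1 had 0 on H2-Q6 and 221 on H2-Q8. I.P. mouse 2 was low for both genes. The groups overlapped in each comparison, with log2 fold changes of -1.57 ± 0.81 by I.P. (edgeR adjusted p = 0.980), -1.48 ± 1.92 by S.C. (edgeR adjusted p = 1.0) and 0.11 ± 1.52 between the routes (edgeR adjusted p = 0.995). Without S.C. mouse 2 the S.C. group is 1 mouse at 0 counts, with the spread taken from the DMSO mice, and the edgeR adjusted p by S.C. was 0.00117 in a fit in which 19.5% of all genes had an adjusted p under 0.05. By I.P. H2-Q6 passed the study's criterion when DMSO mouse 2 (-2.28) or I.P. mouse 4 (-2.41) was left out, as 2.09% and 1.54% of all genes did.

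H2-Q7 (chr17:35439155-35443773, + strand) was at 32.4 and 10.9 CPM in the DMSO mice, at 19.7, 8.39, 42.3 and 11.3 CPM in the I.P. mice, and at 36.4 and 31.3 CPM in the S.C. mice. The DMSO mice were 2.99-fold apart, and DMSO mouse 1 and I.P. mouse 3 reached the level of the S.C. mice, so that the groups overlapped in each comparison. Its log2 fold change was -0.09 ± 0.66 by I.P. (edgeR adjusted p = 0.993) and 0.62 ± 0.59 by S.C. (edgeR adjusted p = 1.0). The S.C. value was 0.03 without DMSO mouse 2 and 1.60 without DMSO mouse 1. Between the routes it was 0.73 ± 0.60 (edgeR adjusted p = 0.821), and 1.34 without I.P. mouse 3, which passed the study's criterion, as 5.61% of all genes did, but not adjustment (edgeR adjusted p = 0.684).

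H2-Q4 (chr17:35379617-35385290, + strand) was at 7.60 and 6.37 CPM in the DMSO mice, at 21.2, 4.44, 21.8 and 7.99 CPM in the I.P. mice, and at 10.4 and 9.10 CPM in the S.C. mice. I.P. mice 1 and 3 stood above the rest and I.P. mouse 2 below, and the S.C. mice were above the DMSO mice. Its log2 fold change was 0.98 ± 0.63 by I.P. (edgeR adjusted p = 0.980), 0.45 ± 0.59 by S.C. (edgeR adjusted p = 1.0) and -0.51 ± 0.68 between the routes (edgeR adjusted p = 0.895), the only member with a value below 0 in S.C. against I.P. mice. The value by I.P. was 1.29 and passed the study's criterion when I.P. mouse 2 was left out, as 2.99% of all genes did.

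H2-Q8 held a lower share of the H2-Q counts in both DMSO mice than in every treated mouse. The shares of H2-Q4, H2-Q5, H2-Q6, H2-Q7 and H2-Q9 overlapped between the DMSO and the treated mice. Of the counts on H2-Q4, H2-Q5, H2-Q6, H2-Q7, H2-Q8 and H2-Q9, H2-Q8 took 0% in DMSO mouse 1, 2.94% in DMSO mouse 2 and 7.64% to 13.8% in the 6 treated mice. H2-Q6 took 12.1% and 6.46% in the DMSO mice, 0.676% to 8.26% in the I.P. mice, then 0% and 4.03% for S.C. mice 1 and 2. The sum of H2-Q4, H2-Q6, H2-Q7 and H2-Q8 was at 54.1 and 21.8 CPM in the DMSO mice, at 56.0, 18.2, 89.4 and 33.5 CPM in the I.P. mice, and at 61.6 and 58.5 CPM in the S.C. mice. The I.P. mice overlapped the DMSO mice in the sum, and both S.C. mice were above them. The log2 fold change of the sum was 0.37 ± 0.60 by I.P. (edgeR adjusted p = 0.980) and 0.64 ± 0.50 by S.C. (edgeR adjusted p = 1.0), against more than 4 by each route for H2-Q8 alone. The S.C. value of the sum was 0.12 without DMSO mouse 2 and 1.42 without DMSO mouse 1. How the reads of the H2-Q genes were divided was not tested as a source of the H2-Q8 and H2-Q6 values.

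**Figure D2:**
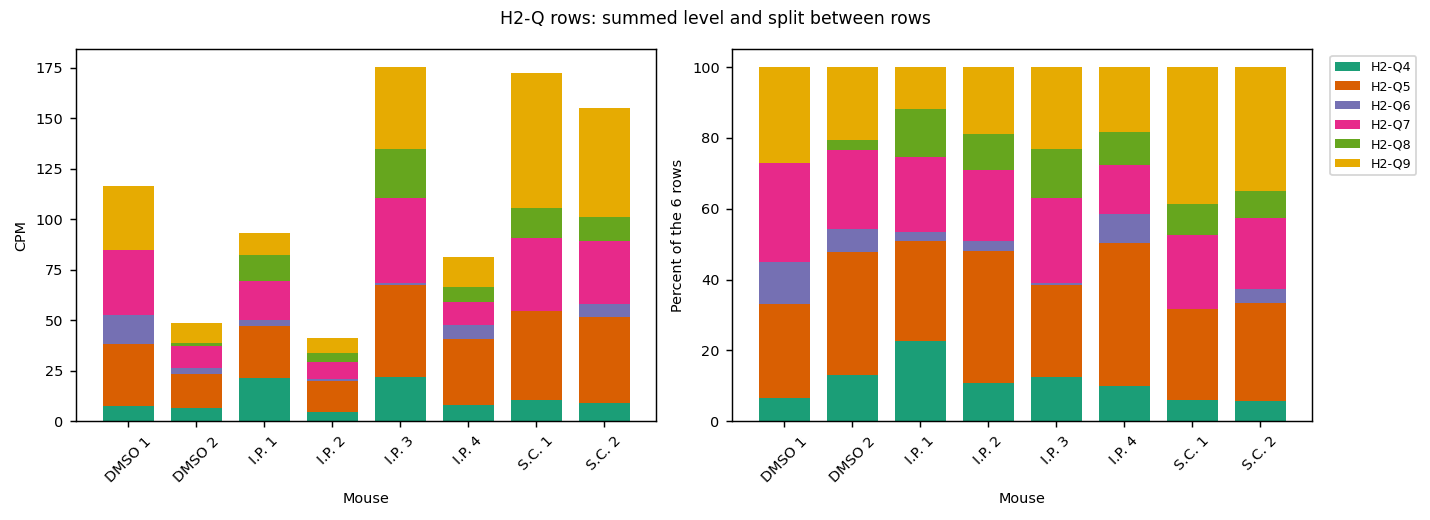
Left, CPM of H2-Q4, H2-Q5, H2-Q6, H2-Q7, H2-Q8 and H2-Q9 stacked for each of the 8 mice; right, the same as percent of the counts on the 6 genes. H2-Q8 holds 0% and 2.94% in the DMSO mice and 7.64% to 13.8% in the treated mice, while the height of the stack is lowest in I.P. mouse 2 and DMSO mouse 2.

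Over all H2-Q genes of the table, a sum chosen after the data were seen, the log2 fold change was 0.26 ± 0.55 by I.P. (edgeR adjusted p = 0.982), 0.96 ± 0.47 by S.C. (edgeR adjusted p = 0.990) and 0.73 ± 0.49 between the routes (edgeR adjusted p = 0.767). The sum of the listed class I heavy chain rows, 28 genes with H2-K1 and H2-D1 among them, was at 7639 and 4772 CPM in the DMSO mice, at 9202, 5370, 8318 and 6039 CPM in the I.P. mice, and at 11001 and 9888 CPM in the S.C. mice. Both S.C. mice were above all 6 other mice in this sum. Its log2 fold change was 0.21 ± 0.31 by I.P. (edgeR adjusted p = 0.980), 0.73 ± 0.35 by S.C., 1.66-fold (edgeR adjusted p = 0.989), and 0.53 ± 0.27 between the routes (edgeR adjusted p = 0.644). These sums passed neither call rule in the 3 comparisons. H2-K2, a class I row outside the list and the sum, was at 13.2 and 8.73 CPM in the DMSO mice and at 20.1 and 32.7 CPM in the S.C. mice, with 1.25 ± 0.51 by S.C. (edgeR adjusted p = 0.937), and is named after its values were seen.

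B2m (chr2:122147686-122153083, + strand), which shares no 50-base window with another gene, was at 2403 and 2826 CPM in the DMSO mice, at 2297, 2109, 4826 and 2188 CPM in the I.P. mice, and at 3377 and 3221 CPM in the S.C. mice. I.P. mouse 3 was far above the other 3 I.P. mice, which were all below both DMSO mice, and the S.C. mice were above both DMSO mice. The log2 fold change of B2m was 0.12 ± 0.38 by I.P. (edgeR adjusted p = 0.988) and -0.26 when I.P. mouse 3 was left out. By S.C. it was 0.31 ± 0.29 (edgeR adjusted p = 1.0) and between the routes 0.21 ± 0.37 (edgeR adjusted p = 0.933).

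Tap1 (chr17:34187553-34197225, + strand) was at 120 and 47.9 CPM in the DMSO mice, at 62.3, 41.0, 110 and 61.4 CPM in the I.P. mice, and at 90.5 and 111 CPM in the S.C. mice. DMSO mouse 1 was the highest of all 8 mice and 2.5-fold above DMSO mouse 2, so that the DMSO mice spanned nearly the whole range. Its log2 fold change was -0.29 ± 0.45 by I.P. (edgeR adjusted p = 0.980), 0.24 ± 0.49 by S.C. (edgeR adjusted p = 1.0) and 0.55 ± 0.39 between the routes (edgeR adjusted p = 0.778). Without DMSO mouse 1 the I.P. value was 0.52, and without DMSO mouse 2 the S.C. value was -0.28.

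Tapbp (chr17:33915899-33929292, + strand) was at 379 and 183 CPM in the DMSO mice, at 260, 201, 320 and 340 CPM in the I.P. mice, and at 275 and 588 CPM in the S.C. mice. S.C. mouse 2 was the highest and S.C. mouse 1 lay between the DMSO mice. The log2 fold change was -0.01 ± 0.34 by I.P. (edgeR adjusted p = 0.997), 0.60 ± 0.53 by S.C. (edgeR adjusted p = 1.0) and -0.09 by S.C. without S.C. mouse 2. Without S.C. mouse 1 it was 1.04 by S.C. and 1.07 against I.P., both past the study's criterion, as were 24.5% and 15.6% of all genes. Between the routes it was 0.62 ± 0.35 (edgeR adjusted p = 0.695).

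**Figure D3:**
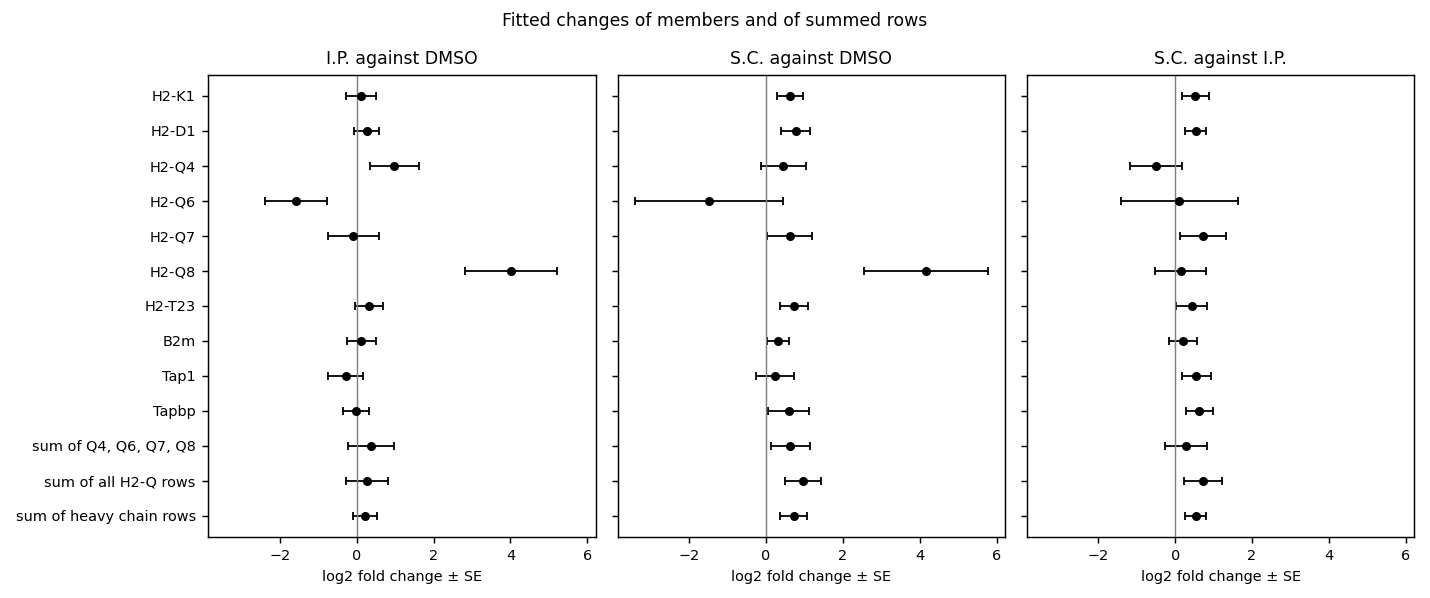
Log2 fold change (points) with its SE (bars) from edgeR for the 10 members and 3 sums in the comparisons I.P. against DMSO, S.C. against DMSO and S.C. against I.P. H2-Q8 lies at 4.02 and 4.16 against DMSO, and the sum of H2-Q4, H2-Q6, H2-Q7 and H2-Q8 at 0.37 and 0.64.

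By S.C., 6 of 10 members (H2-K1, H2-D1, H2-Q4, H2-Q8, H2-T23 and B2m) had both treated mice above both DMSO mice, where 17.1% of all genes did, and 0 of 10 had both below, where 17.2% did. By I.P., 1 of 10 was all higher and 0 of 10 all lower, against 7.31% and 6.83% of all genes. The 6 genes come from the same mice and are not replicates of each other. In S.C. mouse 2 all 10 members were above their own median over the 8 mice, in S.C. mouse 1 and I.P. mouse 3 there were 8, in DMSO mouse 1 there were 6, and in I.P. mouse 2 there were 0. I.P. mouse 3 was the highest for 5 members and I.P. mouse 2 the lowest for 5. Across the 8 mice, log2 CPM of H2-K1 had a Pearson r of 0.98 with H2-Q7, 0.88 with Tap1, 0.79 with H2-D1, 0.76 with B2m and 0.32 with H2-Q8. Other pairs were far apart, with 0.27 for H2-D1 and B2m, 0.01 for H2-T23 and Tapbp, -0.05 for H2-Q8 and Tap1, -0.56 for H2-Q6 and H2-Q8 and -0.74 for H2-Q6 and H2-T23. These are descriptions over 8 mice of 3 treatments, and the heavy chain genes also share reads.

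Summed markers of some other cell types were higher in the S.C. mice than in the DMSO mice. The 5 neutrophil markers measured summed to 4.88 to 13.0 CPM in the DMSO mice, 3.85 to 32.8 CPM in the I.P. mice and 29.4 and 227 CPM in the S.C. mice. All 5 were called higher by S.C. by the study's criterion, which 5.06% of all genes tested passed in either direction. In the same order of groups, the 5 NK cell markers summed to 0.287 to 6.51, 0.0608 to 12.4 and 10.4 to 28.5 CPM, with Ncr1 at 0 CPM in both DMSO mice and in S.C. mouse 2. Of these markers only Gzma, at 14.9 and 6.92 CPM, was above both DMSO mice in both S.C. mice. The 5 dendritic cell markers summed to 1.61 to 6.51, 2.19 to 6.71 and 9.39 to 13.9 CPM. Only Ccr7 among them, at 11.6 and 3.28 CPM, was above both DMSO mice in both S.C. mice, and Clec9a was at 0 CPM in both S.C. mice. The 5 T cell markers measured, at 1.78 to 8.0, 2.07 to 3.50 and 4.15 to 19.0 CPM, overlapped between S.C. and DMSO mice. The 4 endothelial markers, at 1.72 to 3.26, 1.66 to 8.11 and 1.14 to 9.03 CPM, and the 4 fibroblast markers, at 0 to 0.345, 0 to 0.226 and 0 to 0.146 CPM, overlapped as well. The 6 melanoma markers summed to 583 to 643, 430 to 1652 and 680 to 2965 CPM, highest in S.C. mouse 1. By the same criterion, 3 of the 6 melanoma markers and 1 NK cell marker were called higher by S.C. Of the T cell, dendritic cell and endothelial markers, 0 were called. The part of these cells in the class I levels was not tested.

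Per length of the transcript studied, the order of levels over the 8 mice was B2m, with a median of 3040 CPM per kb, H2-D1 with 2637, H2-K1 with 800, H2-T23 with 233, Tapbp with 103, Tap1 with 25.9, H2-Q7 with 16.7, H2-Q4 with 4.77 and H2-Q6 with 1.37 CPM per kb. B2m and H2-D1 overlapped, with ranges of 2452 to 5612 and 1553 to 3850 CPM per kb. H2-K1 and H2-T23 did not overlap, at 470 to 1139 and 152 to 424 CPM per kb.

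Class I promoters are known to carry an enhancer bound by NF-kB, an interferon-stimulated response element bound by IRF factors, and an SXY module bound by RFX, CREB family and NFY factors with the transactivator NLRC5. Within 250 bases before the RefSeq start (GRCm38.p6), on both strands, 4 motifs were sought: the NF-kB site, the IRF core AANNGAAA, the X2 core TGACG and the CCAAT box. Of 32817 promoters, 7.25%, 21.3%, 17.7% and 33.8% held them, and 27 (0.0823%) held all 4. Of the 9 members in the table, 5 held all 4, H2-K1, H2-D1, H2-Q4, H2-Q7 and B2m. In H2-K1, H2-D1, H2-Q7 and B2m the X2 core came before every CCAAT box. In H2-Q4 it was placed otherwise, at -73 to -69, after a CCAAT box at -79 to -75. H2-Q6 held all but the X2 core, H2-T23 held the IRF core and the CCAAT box, Tap1 the X2 core and the CCAAT box, and Tapbp the CCAAT box. The windows of H2-D1, H2-Q4, H2-T23, Tap1 and Tapbp overlap annotated exons. Those of H2-D1 and Tapbp lie within the gene spans given above, so a motif missing there may lie before another start. H2-K1 has 2 RefSeq starts, of which 1 was used. Matches of the NF-kB site on opposite strands can overlap by 9 bases and mark 1 place. The starts of Tap1 and of Psmb9, an immunoproteasome subunit gene on the opposite strand, were 226 bases apart. A match is a description of letters and not a bound site.

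Upstream sequences of H2-K1, H2-Q6, H2-Q7 and B2m are shown to let the spacing of these motifs be seen, with H2-Q6 as the one of the 4 without the X2 core. They run 5′ to 3′ toward the start and lie at chr17:34000348-34000527 (H2-K1, - strand), chr17:35424670-35424849 (H2-Q6, + strand), chr17:35438975-35439154 (H2-Q7, + strand) and chr2:122147507-122147685 (B2m, + strand), on GRCm38.p6. Capitals mark matches to the 4 motifs on either strand.
H2-K1: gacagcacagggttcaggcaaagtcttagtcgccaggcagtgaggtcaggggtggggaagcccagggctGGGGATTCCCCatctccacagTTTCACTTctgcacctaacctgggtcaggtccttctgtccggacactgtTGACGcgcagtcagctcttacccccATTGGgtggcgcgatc
H2-Q6: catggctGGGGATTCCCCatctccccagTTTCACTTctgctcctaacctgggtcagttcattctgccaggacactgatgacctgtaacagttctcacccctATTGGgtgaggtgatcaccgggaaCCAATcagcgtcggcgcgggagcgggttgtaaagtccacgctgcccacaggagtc
H2-Q7: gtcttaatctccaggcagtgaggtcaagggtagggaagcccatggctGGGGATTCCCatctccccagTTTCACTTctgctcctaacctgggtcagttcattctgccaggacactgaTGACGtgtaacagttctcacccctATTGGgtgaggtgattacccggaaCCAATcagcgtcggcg
B2m: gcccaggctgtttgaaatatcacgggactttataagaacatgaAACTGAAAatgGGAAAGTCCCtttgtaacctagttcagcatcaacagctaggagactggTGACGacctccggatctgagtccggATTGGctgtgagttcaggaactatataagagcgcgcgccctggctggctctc
The NF-kB site came first in the 3 heavy chain sequences, followed by the IRF core, and in B2m the IRF core came first.

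**Figure D4:**
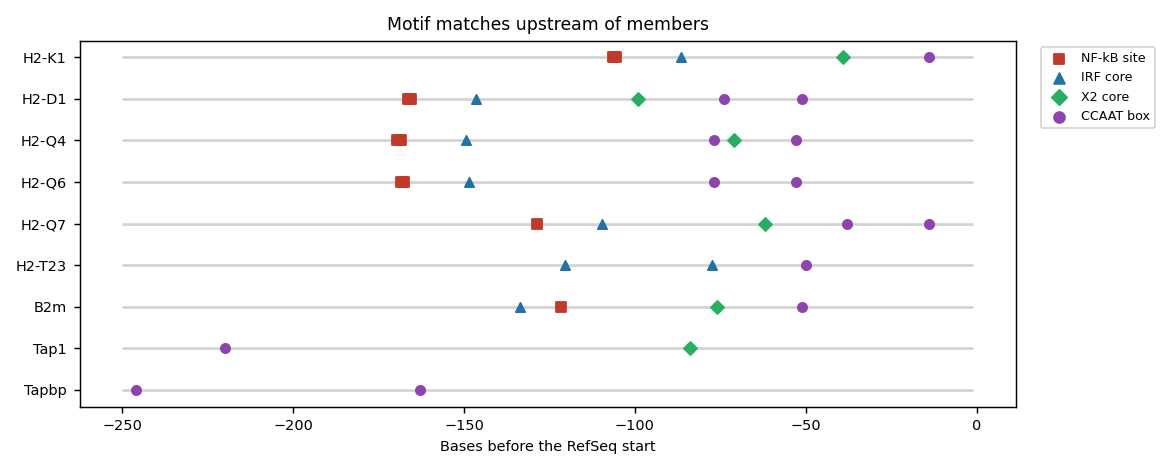
Matches to the NF-kB site, IRF core, X2 core and CCAAT box (symbols) along the 250 bases before the RefSeq start (x axis, bases) for the 9 members in the promoter table. H2-K1, H2-D1, H2-Q4, H2-Q7 and B2m hold all 4 motifs, and in H2-Q4 alone of these the X2 core lies after a CCAAT box.

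Other genes of the pathway were taken from lists, and few were called by the study's criterion. The immunoproteasome subunits Psmb8, Psmb9 and Psmb10 and the proteasome activator subunits Psme1 and Psme2 had fitted values above 0 for 2 of 5 by I.P. and for 5 of 5 by S.C., and medians of -0.35 and 0.30 on the log2 scale, and 0 of 5 passed the criterion by either route. Of 15 other loading and peptide-trimming genes, among them Tap2, Calr, Canx, Pdia3 and Erap1, I.P. values were above 0 for 4 and S.C. values for 6, medians were -0.15 and -0.10, and 0 passed. The 11 other heavy chain genes tested by I.P. had a median of -0.17 and 0 calls, and the 10 tested by S.C. a median of 0.59 and 1 call, H2-Q9, named after its values were seen, at 1.51 ± 0.60 (edgeR adjusted p = 0.911).

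Regulators and receptors of the pathway had single calls, beside 2.0% of all genes tested by I.P. and 5.06% by S.C. Of 17 regulators of class I transcription, 10 had fitted values above 0 by I.P. and 12 by S.C., and their medians were 0.03 and 0.17. Irf1, an interferon-induced factor that binds class I promoters, was at 86.2 and 59.2 CPM in the DMSO mice and at 109.5 and 277 CPM in the S.C. mice, with a log2 fold change of 1.39 ± 0.52 (edgeR adjusted p = 0.887), the 1 call by S.C. Among 9 interferon receptor, JAK and SOCS genes, Socs3, a feedback inhibitor of JAK signalling, was at 30.7 and 25.2 CPM in the DMSO mice and at 83.7 and 117 CPM in the S.C. mice, with 1.82 ± 0.36 (edgeR adjusted p = 0.747), the 1 call there. Fcgrt, the neonatal Fc receptor heavy chain, which also pairs with β2-microglobulin, was below DMSO in both S.C. mice with -0.85 ± 0.33 (edgeR adjusted p = 0.902) and under the 2-fold bound.

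By I.P., the smallest p of the pathway lists were those of Pira2 and Lilrb3, members of the paired immunoglobulin-like receptor family. Pira2 was at 56.8 and 50.2 CPM in the DMSO mice and at 200.2, 59.4, 88.8 and 128 CPM in the I.P. mice, with 1.14 ± 0.45 (edgeR adjusted p = 0.980), the 1 call among the 10 tested receptor genes. Lilrb3 was at 270.3 and 306 CPM in the DMSO mice and at 643, 342, 433 and 522 CPM in the I.P. mice, with 0.74 ± 0.29 (edgeR adjusted p = 0.980). All 4 I.P. mice were above both DMSO mice for both genes, as they were for 7.31% of all genes, and 2.0% of all genes passed the study's criterion by I.P. Gm11127, a class I-like heavy chain gene, had -1.34 ± 0.61 (edgeR adjusted p = 0.980) and overlapping groups, with DMSO mouse 2 and S.C. mouse 1 the highest at 106 and 74.3 CPM.

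**Figure D5:**
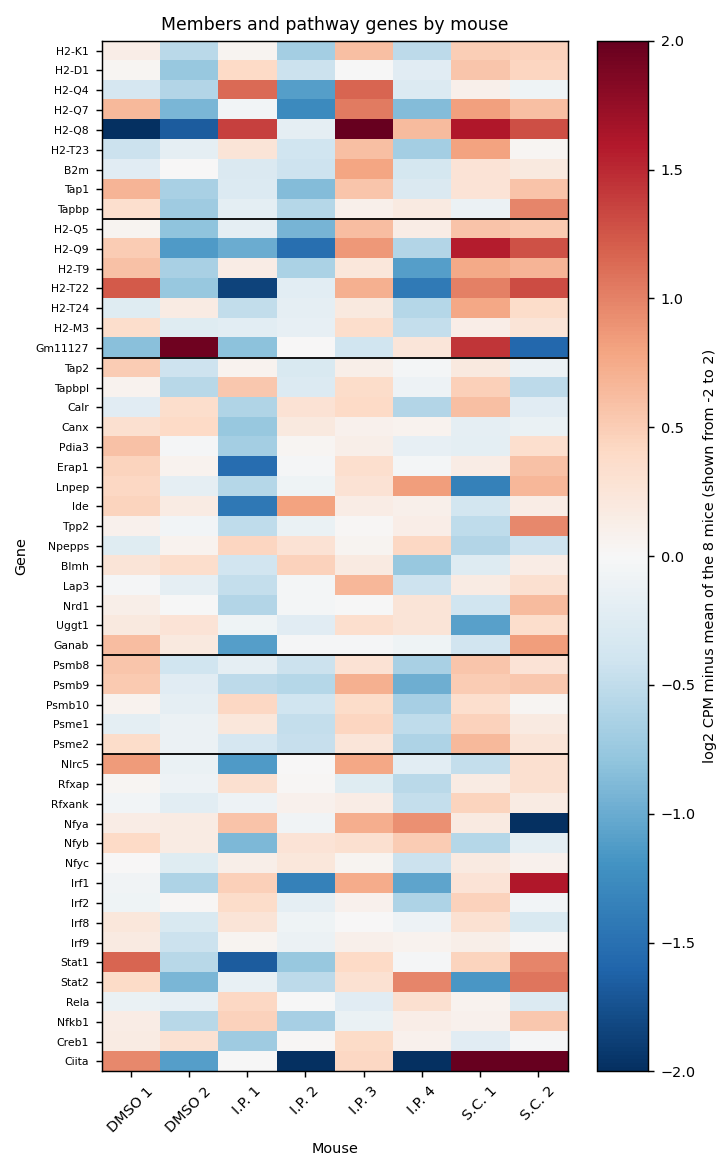
Log2 CPM minus the mean of the 8 mice for 52 genes, 9 members on top, then other class I genes, loading and trimming genes, the immunoproteasome with its activator, and regulators of transcription. H2-Q6, whose mean level was under 5 CPM, is not drawn, and columns are mice. I.P. mouse 2 is low and I.P. mouse 3 and the S.C. mice are high for most members.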

How the data were processed

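Whole-number counts of TAM RNA-seq libraries from 8 mice were used, which the labels name DMSO (2), IP (4) and IS (2). These were taken as the study's DMSO, I.P. thiostrepton and tumor-adjacent S.C. thiostrepton groups, whose sizes are the same. The counts were deposited by the authors per gene symbol without normalization. Per the labels, reads were aligned to mm10, and the submitters' processing notes name TopHat2 and edgeR, while the study's methods name bowtie2 and RSEM. Which of these made the counts, how reads that match several genes were divided and whether strand was used were not settled here.

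The analysis ran in R 4.3.3 on edgeR 4.0.16 and its dependency limma 3.58.1, and DESeq2 1.42.0 served as an alternative. Genes were kept by filterByExpr (minimum count 10, minimum total count 15), scaled by TMM, and each comparison had its own fit of the groups in it, tested by edgeR's quasi-likelihood F test (two-sided), with Benjamini-Hochberg adjustment over all genes tested. SE is the size of a log2 fold change divided by the square root of F. CPM were scaled by TMM over the 8 mice, and log2 CPM used a prior count of 2. Precision is set by 14127506 to 17577466 counts per mouse, and with 2 or 4 mice per group p-values measure the spread between these mice. The procedure was tested on simulated data.

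All members were named. Of the pathway lists, the 3 genes with the smallest unadjusted p by each route were named, and those outside this rule are said to be. Members, lists and tests were chosen with earlier results of these data known. Positions are from GENCODE vM21 (GRCm38, the assembly of mm10), in which 21777 of 23413 symbols and 9 of 10 members were found. Promoters are from RefSeq (GRCm38.p6), with 9 of 10 members matched, and are printed for 4 whose window overlaps no annotated exon. Alternatives were no gene filter, at least 1 CPM in 2 mice, RLE size factors, library size only, DESeq2, edgeR's likelihood ratio test, 1 fit of all 3 groups, same-numbered mice as a block and leaving out each mouse, with the sum over all H2-Q genes added after the data were seen. The block held only numbers found in both groups, which left out I.P. mice 3 and 4. The levels of 1 of the marker lists are not reported here.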

Additional observations from a re-analysis of the deposited data

Results flagged for a closer look

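B2m in the I.P. mice stood apart, because 1 mouse lay far from the other 3. I.P. mouse 3 was at 4826 CPM and the others at 2109 to 2297 CPM, and on the log2 CPM scale its gap to the nearest of them was 0.897 (0.8966) of the whole range, above the Dixon 95% value of 0.829 for 4 samples. Among 13 quantities tested in the I.P. mice this was the only such case, and about 1 in 20 would be so by chance. The same mouse was the highest of all 8 for 5 of 10 members.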

How the results depend on the processing

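No member had an adjusted p under 0.05 by edgeR or DESeq2 under the 8 alternatives other than leaving out each mouse. Of 640 values recomputed, 591 held. Of these, values with a test kept their direction and their side of the threshold. Medians of the members moved by less than the spread between replicates, and counts of members were unchanged. Deviations of same-numbered mice from their group means had correlations of -0.128 to 0.0739, which gives no sign of pairing. In a group of 2 mice the deviations mirror each other, so this check cannot exclude a pairing. The replicate block kept only mice whose number occurs in both groups, so I.P. mice 3 and 4 were not in it. With this block, 2 members passed the study's criterion by I.P. and 1 between the routes, where 2.46% and 3.32% of all genes did. The members' median by I.P. was then -0.17. The I.P. log2 fold change under the block was -0.12 for H2-K1, -0.25 for B2m, -0.12 for the sum of H2-Q4, H2-Q6, H2-Q7 and H2-Q8 and -0.28 for the sum of all H2-Q rows, and that of H2-Q6 between the routes was -1.53. With library size only, 0 members passed the criterion by S.C., and H2-Q6 was -0.0198 between the routes. The cause of these shifts was not tested.

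Leaving out each mouse moved the members passing the criterion from 1 to 2 by I.P., from 1 to 3 by S.C. and from 0 to 1 between the routes, and those with an adjusted p under 0.05 by S.C. from 0 to 2. With an S.C. mouse left out, 24.5% and 27.8% of all genes passed the criterion by S.C. and 16.2% and 19.5% had an adjusted p under 0.05; by I.P. the criterion took 0.909% to 3.0% of all genes. The members' median by I.P. ranged from -0.14 to 0.56. The I.P. log2 fold changes ranged from -0.19 to 0.48 for H2-K1, -0.0751 to 0.71 for H2-D1, -0.73 to 0.91 for H2-Q7, -0.26 to 0.25 for B2m, -0.80 to 0.52 for Tap1 and -0.44 to 0.61 for Tapbp. For the sums they ranged from -0.14 to 1.17 for H2-Q4, H2-Q6, H2-Q7 and H2-Q8, -0.0808 to 0.60 for the listed heavy chains and -0.23 to 1.01 for all H2-Q rows. By S.C. the members' median ranged from 0.320 to 1.007, H2-Q6 from -10.09 to -0.04, H2-Q8 from 3.17 to 10.58, Tap1 from -0.28 to 1.04 and Tapbp from -0.0927 to 1.2. Between the routes H2-Q6 ranged from -8.57 to 1.11, H2-Q8 from -0.14 to 0.69, H2-T23 from -0.0027 to 0.76 and Tapbp from -0.0334 to 1.07. The ends near -10, -9 and 10 come from groups left at 0 counts and are no bounds. Direction by I.P. turned when DMSO mouse 2 or I.P. mouse 3 was left out for H2-K1 and both H2-Q sums.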

Other observations

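The genes whose log2 CPM followed 3 members most closely across the 8 mice, members themselves left out, were named from the 9319 whose mean reached 5 CPM. For H2-K1 they were H2-DMa, a class II peptide-loading gene (Pearson r 0.97), AW112010 (0.95) and Sh2d1b1 (0.94). For B2m they were Ctbs (0.93), Cnpy2 (0.92) and Ly86 (0.89). For Tap1 they were Cfb, complement factor B (0.98), Plbd1 (0.98) and St7 (0.97). These are the highest of many values over 8 mice of 3 treatments and are given as a description.

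Between the routes, 3 of the 11 tested genes in the list of other heavy chains had an unadjusted P under 0.05 by edgeR. All 3 were higher in both S.C. mice than in all I.P. mice, and they were named after their values were seen. Of all genes, 1049 of 12206 had an unadjusted P under 0.05 by edgeR, and 8.05% had both S.C. mice above all I.P. mice. H2-Q9 had a log2 fold change of 1.70 ± 0.59 (edgeR adjusted p = 0.481), H2-T9 of 0.96 ± 0.40 (edgeR adjusted p = 0.560) and H2-T24 of 0.81 ± 0.31 (edgeR adjusted p = 0.511). H2-Q9 was also the H2-Q gene with the largest share of counts in the S.C. mice, 38.7% and 34.8% of the 6 H2-Q genes, against 11.9% to 27.1% in the other 6 mice. Also named after their values were seen, Ciita, the class II transactivator, was 2.79 ± 0.83 higher by S.C. than by I.P. (edgeR adjusted p = 0.396), and Psme2 0.73 ± 0.30 (edgeR adjusted p = 0.552).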
